A study of Rattus norvegicus with 10 samples.

Results

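The genes described here, 10 in all, encode the enzymes of serine, asparagine and proline synthesis and of the steps that feed or follow them, and were taken by name as known targets of the transcription factor Atf4. Every non-control probe whose transcript belonged to 1 of these genes was used, which gave 13 probes for the 10 genes, out of 30367 probes and 15154 named genes on the array. All 10 genes were well above background and were tested in both comparisons. Expression was measured in PCCl3 cells, a rat thyroid follicular cell line, in 3 conditions and 4 cultures per condition. Cells labelled siFoxE1 received 25 nM of an siRNA against the thyroid forkhead factor FoxE1, siScramble cells received 25 nM of a scrambled siRNA, and wt cells were left untransfected, with RNA taken 48 h after transfection. siFoxE1 RNA was set against siScramble RNA on 5 Agilent arrays with 2 dyes and against wt RNA on 5 more. On 4 arrays of each comparison a culture of each condition was hybridized with siFoxE1 in Cy5, and on the other array the pooled RNA of the same cultures was hybridized with siFoxE1 in Cy3. The same siFoxE1 extracts served both comparisons, so these are not independent of each other.

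Serine is made from a glycolytic intermediate by Phgdh, Psat1 and Psph, which act in that sequence. Shmt2 and Mthfd2 then move its side-chain carbon into the mitochondrial folate cycle, which serves nucleotide synthesis. Asns makes asparagine from aspartate, which Got1 interconverts with oxaloacetate in the cytosol, Aldh18a1 and Pycr1 make proline from glutamate, and Pck2 is the mitochondrial enzyme that makes phosphoenolpyruvate from oxaloacetate. Atf4 is the transcription factor of the integrated stress response, which cells use when amino acids run short or unfolded proteins build up in the endoplasmic reticulum (ER).

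The arrays met their labels for the target and for the cell type. Foxe1 had a fitted log2 fold change of -0.80 vs siScramble (adjusted p = 0.0228, limma) and of -0.86 vs wt (adjusted p = 0.0333), and its ratio was below 0 on all 10 arrays. The 8 thyroid markers, such as Tg, the thyroglobulin gene, were well above background on all 10 arrays, whereas of 14 markers of fibroblasts, endothelium, immune cells and C cells, Dcn, Pecam1, Ptprc and Chga were not so on any array. Col1a1, Col1a2, Pdgfra, Cdh5 and Csf1r of these were above background on all 10, and of the 5 markers tested vs siScramble and the 6 tested vs wt 0 passed. Tg itself had -0.21 vs siScramble (adjusted p = 0.285) and -0.27 vs wt (adjusted p = 0.234, or 0.0273 with the replicate number as a block). Each array had 58717 spots, of which 56.8 to 60.3% were well above background in Cy5 and 60.6 to 68.2% in Cy3, and no spot was saturated. All 5 arrays of siFoxE1 vs wt lay on slide 1, and 2 of those of siFoxE1 vs siScramble, replicate 3 and the pool, lay on slide 2.

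The fitted ratios of siFoxE1 over each of the other conditions were below 0 for 9 of the 10 enzymes, with Psat1 as the exception, and were closest to 0 for Psat1 and Phgdh of the serine route. The median of the 10 fitted log2 fold changes was -0.31 vs siScramble, where the median of all 9719 genes tested was 0.0008, and -0.52 vs wt, where the median of all 9880 genes was -0.0023. None of the 10 passed an adjusted p of 0.05 in limma in either comparison, where 0.144% of all genes passed vs siScramble and 0.0304% vs wt. At an unadjusted p under 0.05, 8 of the 10 were lower vs siScramble (7.5% of all genes) and 8 of the 10 vs wt (10.2% of all genes). With the replicate number as a block over all 10 arrays, 8 passed the adjusted threshold vs wt, all lower (4.86% of all genes), and 0 passed vs siScramble (0.165% of all genes). A fit of all 10 arrays without the block takes arrays of the same siFoxE1 extract as independent. It gave 7 members lower vs wt, where 1154 genes passed in either direction. Vs siScramble it gave 0 members, where 67 genes passed. Since wt cells were left untransfected, siFoxE1 vs wt differs in transfection as well as in FoxE1 silencing, and that comparison cannot tell these apart. In bulk RNA, fewer transcripts per cell and fewer cells that express the gene cannot be told apart.

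The signs held across arrays for most members. Below 0 on all 5 arrays were 7 of the 10 genes vs siScramble (11% of all genes) and 8 of the 10 vs wt (14.1% of all genes). The lowest of the 4 individual ratios was that of replicate 3 for 8 of the 10 genes vs siScramble (25.6% of all genes) and for 8 of the 10 vs wt (33.5% of all genes). Replicate 3 also had the widest ratios over all genes, with an SD of 0.323 vs siScramble, against 0.175 to 0.29 in the other replicates, and of 0.483 vs wt, against 0.187 to 0.328. The fit with its dye term gives the midpoint between the mean of the 4 individual arrays and the pooled dye swap, so the pool weighs as much as the 4 arrays together.

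**Figure D1:**
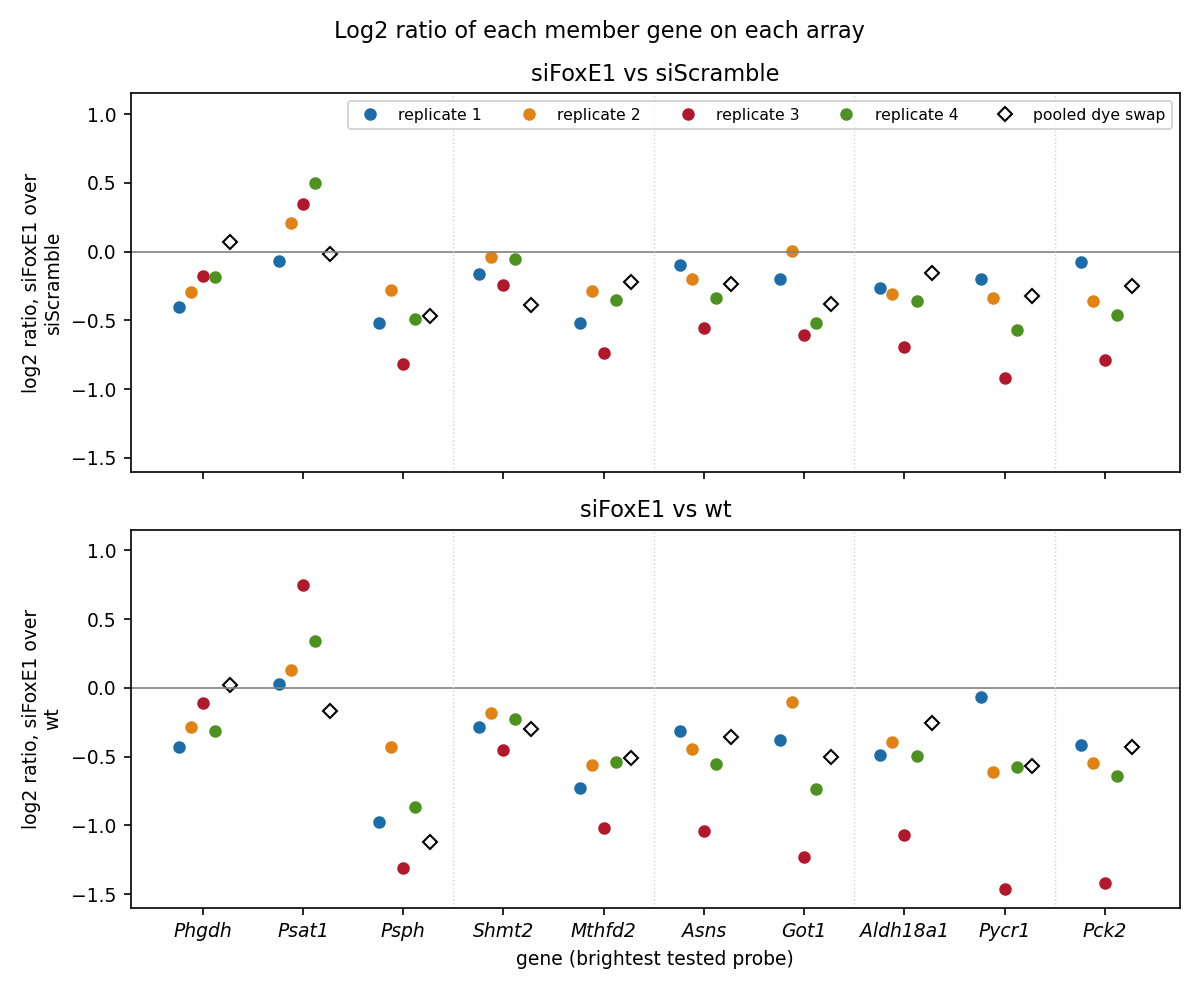
Log2 ratio of siFoxE1 over siScramble (top) and of siFoxE1 over wt (bottom) for each member, with a filled point per replicate and an open diamond for the pooled dye swap; dotted lines part serine synthesis, folate enzymes, asparagine and aspartate, proline, and Pck2. Replicate 3 is the lowest filled point for 8 of the 10 genes in each panel, and Psat1 has its highest point vs wt there, at 0.75.

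Promoter sequence was read for the enzymes because the fitted values of 9 of them had 1 sign. RefSeq windows of 300 bases, from 250 before to 50 after the start of a gene, were at hand for 9 of the 10 genes (build GRCr8). They were searched on both strands for TGATGNAA, a composite site of C/EBP and ATF factors to which Atf4 can bind, for AAACA, a core of forkhead sites, and for TTGG followed by AAACA after 5 to 30 bases, as an arrangement of NF1 and forkhead sites that contains the AAACA letters. TGATGNAA was in 3 of the 9 windows and in 3.98% of all 33469 windows. AAACA was in 3 of the 9 windows, those of Phgdh, Shmt2 and Pycr1, and in 51.9% of all windows, and the spaced pair was in 0 of the 9 and in 7.38% of all windows. A match of this kind says only that the letters are present. The stretches around TGATGNAA are shown because they are the member windows that hold the Atf4 motif, those of Pycr1, Got1 and Pck2. Psph, which had the lowest fitted value in both comparisons, and Mthfd2 had no match.

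The stretches are given 5′ to 3′ on the strand of the gene, with the match in capitals, which for Got1 and Pck2 is the reverse complement of the motif. The Pycr1 match starts 131 bases before the gene's start (chr10:106420896-106420983, minus strand), the Got1 match 167 bases before (chr1:252329991-252330078, minus strand) and the Pck2 match 239 bases before (chr15:32997603-32997661, plus strand).
Pycr1: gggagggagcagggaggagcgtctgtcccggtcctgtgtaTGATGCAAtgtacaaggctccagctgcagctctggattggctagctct
Got1: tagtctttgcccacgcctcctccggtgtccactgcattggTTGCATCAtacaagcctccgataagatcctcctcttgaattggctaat
Pck2: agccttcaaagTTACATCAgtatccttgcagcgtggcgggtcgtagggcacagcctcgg

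Psph, the phosphatase of the last step of serine synthesis, had the lowest fitted value of all members in both comparisons. Its log2 ratios vs siScramble were -0.52, -0.28, -0.82 and -0.49 for replicates 1 to 4 and -0.47 in the pool. Against wt they were -0.98, -0.43, -1.31 and -0.87, with -1.12 in the pool. All 10 ratios were below 0, and replicate 2 was the nearest to 0 each time. The individual arrays averaged -0.53 ± 0.22 vs siScramble and -0.90 ± 0.36 vs wt (SD, n = 4). The fitted log2 fold change was -0.50 vs siScramble (standard error 0.099, adjusted p = 0.168) and -1.01 vs wt (standard error 0.151, adjusted p = 0.125). With the replicate block the adjusted p vs wt was 0.00143, and vs siScramble it was 0.0822. In the fit of this comparison alone the adjusted p vs wt was 0.367, 0.0436, 0.0316 and 0.425 when replicate 1, 2, 3 or 4 was left out.

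The enzymes before Psph in the same route did not share its values. Phgdh, the dehydrogenase of the first step, gave -0.41, -0.29, -0.17 and -0.19 vs siScramble and -0.43, -0.29, -0.11 and -0.32 vs wt on the individual arrays. All 8 of these were below 0, and replicate 3, the lowest array for most members, was the nearest to 0 for Phgdh. The pooled dye swaps gave 0.07 vs siScramble and 0.02 vs wt, which left fitted values of -0.10 (adjusted p = 0.625) and -0.13 (adjusted p = 0.418). Since only the pool has the dyes swapped, an effect of the dye on this probe and a difference between the pool and the cultures cannot be told apart.

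Psat1, the aminotransferase between Phgdh and Psph, had ratios above 0 on 7 of the 8 individual arrays. They were -0.07, 0.21, 0.35 and 0.50 vs siScramble and 0.03, 0.13, 0.75 and 0.34 vs wt, with -0.02 and -0.17 in the pools of these comparisons. The highest ratio vs wt was that of replicate 3, where Psph, Asns and Pck2 had their lowest. The fitted log2 fold changes were 0.11 vs siScramble (standard error 0.105, adjusted p = 0.711) and 0.07 vs wt (standard error 0.136, adjusted p = 0.809). Over the 8 individual ratios, Psat1 correlated with the mean of the members at r = -0.70 and Phgdh at r = -0.59, while the other 8 members had r of 0.84 to 0.98. These r describe 8 arrays that share 4 siFoxE1 extracts, and each gene is part of the mean.

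Shmt2, the mitochondrial hydroxymethyltransferase that takes the carbon from serine, had small ratios of a single sign. They were -0.16, -0.04, -0.24 and -0.05 vs siScramble with -0.39 in the pool, and -0.28, -0.19, -0.45 and -0.23 vs wt with -0.30 in the pool. Its fitted value was -0.25 vs siScramble (standard error 0.0709, adjusted p = 0.236) and -0.29 vs wt (standard error 0.0773, adjusted p = 0.234, or 0.0222 with the block). On the 3 slide 1 arrays alone the value vs siScramble was -0.08.

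Mthfd2, the mitochondrial dehydrogenase and cyclohydrolase of the next folate step, was measured by 3 probes. The brightest gave -0.52, -0.29, -0.74 and -0.35 vs siScramble with -0.22 in the pool, and -0.73, -0.56, -1.02 and -0.54 vs wt with -0.51 in the pool. All 10 ratios were below 0. The fitted values were -0.35 vs siScramble (standard error 0.0936, adjusted p = 0.23) and -0.61 vs wt (standard error 0.105, adjusted p = 0.191), and with the block the adjusted p vs wt was 0.00337. The other Mthfd2 probes gave -0.39 and -0.40 vs siScramble and -0.49 and -0.53 vs wt, below 0 on all 5 arrays of each comparison, so the 3 probes had 1 sign. When replicate 1, 2, 3 or 4 was left out, the adjusted p of the brightest probe vs wt was 0.367, 0.0679, 0.0428 and 0.443.

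Asns, the amidotransferase that makes asparagine, had log2 ratios of -0.10, -0.20, -0.56 and -0.34 vs siScramble with -0.24 in the pool. Its ratios vs wt were -0.32, -0.44, -1.04 and -0.55 with -0.35 in the pool. None was above 0, and replicate 3 was the lowest in both comparisons. The fitted values were -0.27 vs siScramble (standard error 0.0935, adjusted p = 0.30) and -0.47 vs wt (standard error 0.135, adjusted p = 0.234), and the adjusted p vs wt was 0.0188 with the block.

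Got1, the cytosolic aspartate aminotransferase, had ratios that differed widely between cultures. Vs siScramble its ratios were -0.20, 0.01, -0.61 and -0.52 with -0.38 in the pool, and vs wt they were -0.38, -0.10, -1.23 and -0.74 with -0.50 in the pool. Replicate 2 was at or near 0 and replicate 3 far below it. The fitted values were -0.36 vs siScramble (standard error 0.117, adjusted p = 0.285) and -0.56 vs wt (standard error 0.195, adjusted p = 0.25), and with the block the adjusted p vs wt was 0.0324.

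Aldh18a1, which makes the precursor of proline from glutamate, was measured by 2 probes. The brighter gave -0.26, -0.31, -0.69 and -0.36 vs siScramble with -0.16 in the pool, and -0.49, -0.40, -1.07 and -0.49 vs wt with -0.26 in the pool. Its fitted values were -0.28 vs siScramble (standard error 0.0924, adjusted p = 0.285) and -0.43 vs wt (standard error 0.133, adjusted p = 0.239). The other probe gave -0.39 and -0.59, and both probes were below 0 on all 10 arrays. With the block the adjusted p vs wt was 0.0236 for the brighter probe and 0.0188 for the other.

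Pycr1, the reductase that completes proline, had the widest spread of ratios over the 4 cultures. Its ratios were -0.20, -0.34, -0.92 and -0.57 vs siScramble with -0.32 in the pool, and -0.07, -0.61, -1.46 and -0.58 vs wt with -0.57 in the pool. All were below 0, but replicate 1 vs wt was near 0 while replicate 3 was the lowest single ratio of any member. The individual arrays averaged -0.51 ± 0.32 vs siScramble and -0.68 ± 0.58 vs wt (SD, n = 4), against fitted values of -0.42 vs siScramble (adjusted p = 0.262) and -0.62 vs wt (adjusted p = 0.258, or 0.0422 with the block).

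Pck2, which makes phosphoenolpyruvate in mitochondria and whose window also holds TGATGNAA, had ratios of -0.08, -0.36, -0.79 and -0.46 vs siScramble with -0.25 in the pool. Its ratios vs wt were -0.42, -0.55, -1.42 and -0.64 with -0.43 in the pool. Again no ratio was above 0 and replicate 3 was the lowest. The fitted values were -0.34 vs siScramble (standard error 0.12, adjusted p = 0.305) and -0.59 vs wt (standard error 0.181, adjusted p = 0.239, and 0.0236 with the block).

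Within slides the median member value vs siScramble was -0.30 on the 3 arrays of slide 1, where no member passed, and -0.45 on the replicate 3 and pooled arrays of slide 2, which are too few for a test. With slide as a term it was -0.25, but this fit gave every member the same value as leaving out replicate 3 and is no separate test of the slide.

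Levels by culture showed that siScramble lay between siFoxE1 and wt for most members. Within a culture the order siFoxE1 below siScramble below wt held in all 4 cultures for 6 of the 10 genes, namely Psph, Shmt2, Mthfd2, Asns, Aldh18a1 and Pck2 (3.11% of all 9573 genes tested in both comparisons). It held in 3 cultures for Phgdh, Pycr1 and Got1 and in none for Psat1. siScramble was below wt in all 4 cultures for 7 genes, where 13.6% of all genes were. The siFoxE1 levels are Cy5 signals and the others Cy3 signals, so a dye effect on a probe enters the first step of this order and not the second.

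In the indirect comparison of siScramble vs wt, taken as the difference between both comparisons in a fit of all 10 arrays, the member median was -0.22 and 0 of the 10 passed, as did 0% of all 9578 genes. An unadjusted p under 0.05 was reached by 2 members, where 1.43% of all genes reached it with a lower value. These were Psph, with a log2 fold change of -0.43 (standard error 0.154, unadjusted p = 0.0178, adjusted p = 0.984), and Mthfd2, with -0.25 (standard error 0.112, unadjusted p = 0.0489). This contrast is also the test of the gap between the vs wt and vs siScramble values, so for no member did that gap pass.

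**Figure D2:**
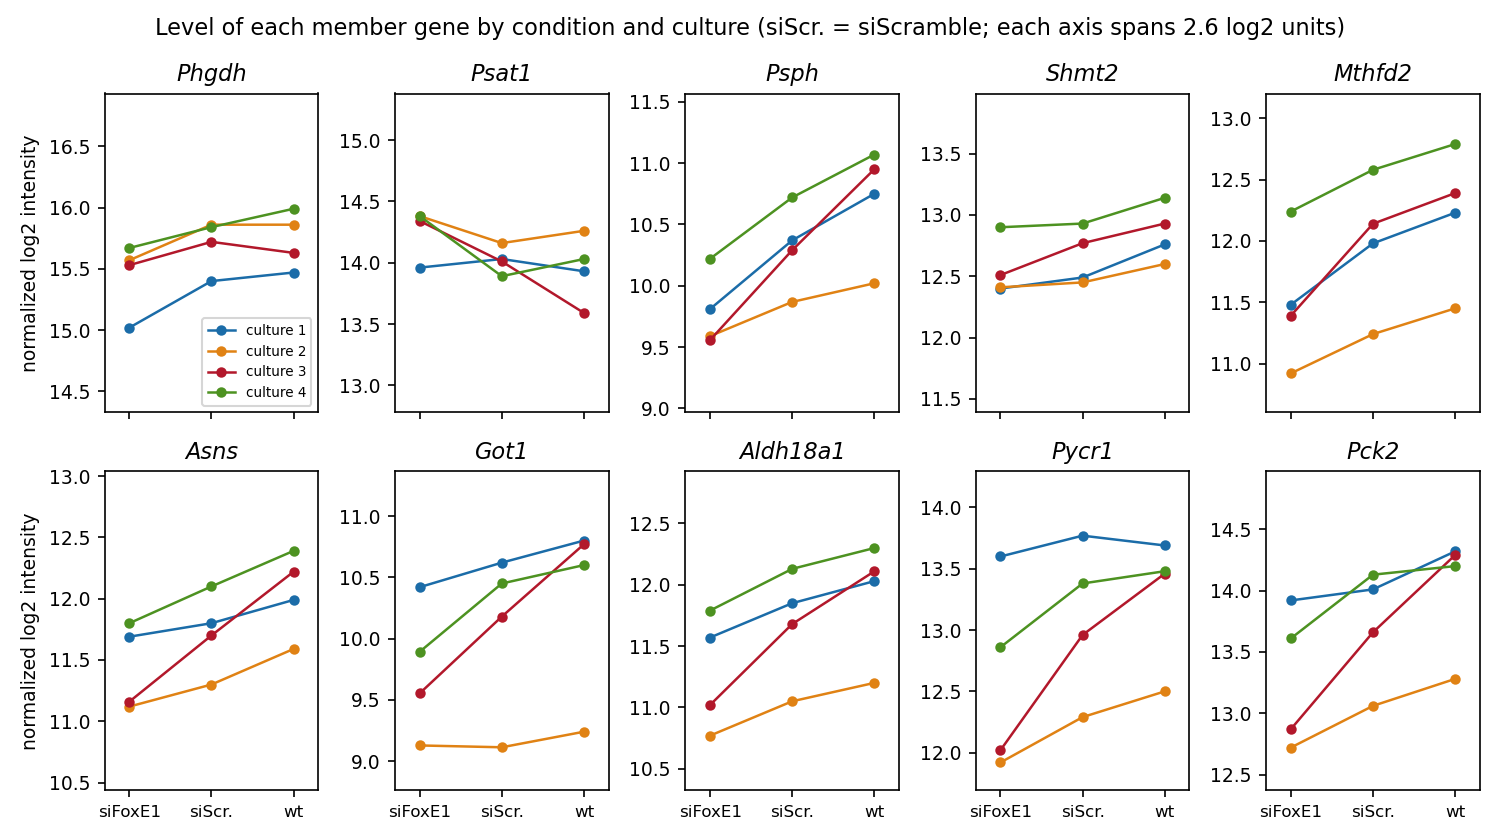
Normalized log2 intensity of each member in siFoxE1, siScramble (siScr.) and wt cells, with a line per culture; each vertical axis spans the same number of log2 units, and siFoxE1 is the mean of its 2 arrays. Culture 2 is the lowest line in wt for 8 of the 10 genes, and the culture 3 line is steep for Pycr1, Got1 and Pck2.

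The cultures differed widely from each other in several of these enzymes. Got1 had levels of 10.42, 9.13, 9.55 and 9.89 in siFoxE1 cultures 1 to 4, against 10.62, 9.11, 10.18 and 10.45 in siScramble cultures and 10.80, 9.24, 10.77 and 10.60 in wt cultures. The siFoxE1 and wt levels overlapped, and culture 2 was the lowest in every condition. Pck2 had 13.92, 12.72, 12.87 and 13.61 in siFoxE1 cultures, against 14.01, 13.06, 13.66 and 14.13 in siScramble and 14.32, 13.28, 14.29 and 14.20 in wt cultures. Here too culture 2 was the lowest throughout, while culture 3 was among the highest in wt and next to the lowest in siFoxE1 cells. Pycr1 had 13.60, 11.92, 12.02 and 12.86 in siFoxE1 cultures, against 13.77, 12.29, 12.96 and 13.38 in siScramble and 13.69, 12.50, 13.46 and 13.48 in wt cultures. Culture 1 was its highest and culture 2 its lowest in each condition.

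The span over the 4 cultures exceeded 1 on the log2 scale for 5 of the 10 members in siFoxE1 cells, 5 in siScramble cells and 6 in wt cells, where 9.74, 9.14 and 9.36% of all genes did so in these conditions. The median span of the members was 0.85 in siFoxE1, 0.96 in siScramble and 1.04 in wt cells, against 0.43, 0.42 and 0.40 for all genes. Culture 2 was the lowest for 6 members in siFoxE1, 8 in siScramble and 8 in wt cells, and culture 4 was the highest for 6 members in each condition. The matching shares of all genes are not given here, so these counts are not read as particular to the members.

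Culture 2 was not the lowest for Phgdh or Psat1 in any condition. Psat1 had 13.96, 14.38, 14.34 and 14.38 in siFoxE1 cultures, against 14.03, 14.16, 14.01 and 13.89 in siScramble and 13.93, 14.26, 13.59 and 14.03 in wt cultures. Its siFoxE1 level was the higher of the pair in cultures 2, 3 and 4 against both other conditions, and culture 2 was its highest in siScramble and wt cells. Phgdh had 15.02, 15.57, 15.53 and 15.67 in siFoxE1 cultures, against 15.40, 15.86, 15.72 and 15.84 in siScramble and 15.47, 15.86, 15.63 and 15.99 in wt cultures, with culture 1 the lowest in every condition.

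Genes for the sister enzymes were read beside the members. Of 8 listed paralogs 6 had a probe and 5 were tested, and none passed in either comparison or with the block. Their median log2 fold change was -0.05 vs siScramble and -0.008 vs wt. Got2, the mitochondrial partner of Got1, had -0.05 and -0.008 in these comparisons, where Got1 had -0.36 and -0.56. Pycr3, a further reductase of the proline route, had 0.11 vs siScramble and 0.26 vs wt (adjusted p = 0.628 and 0.264), where Pycr1 had -0.42 and -0.62. Mthfd2l, a relative of Mthfd2 in mitochondria, had 0.04 and 0.0048, and Mthfd1, which does these folate steps in the cytosol, had -0.22 in each (adjusted p = 0.304 and 0.303). The difference between a member and its paralog was not tested. Pck1, the cytosolic counterpart of Pck2, was too dim to be tested.

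**Figure D3:**
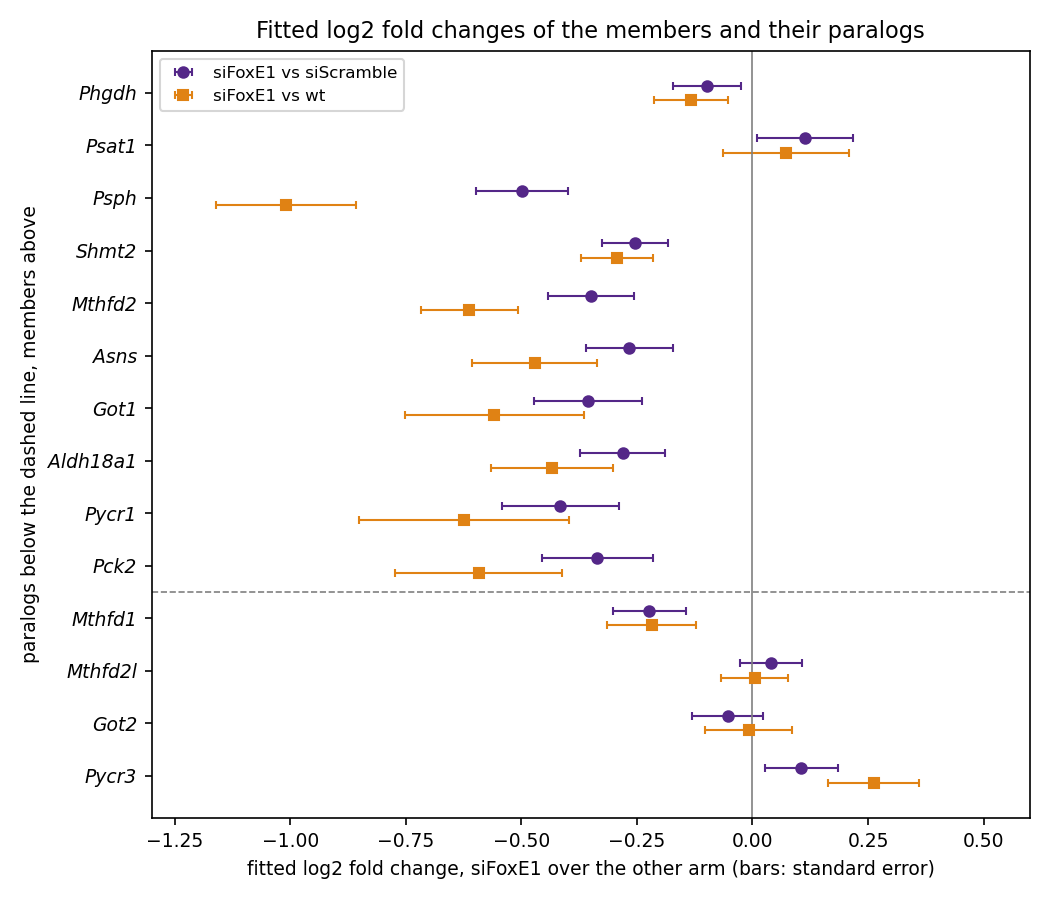
Fitted log2 fold changes with their standard errors for the 10 members (above the dashed line) and 4 of the tested paralogs (below it), with circles for siFoxE1 vs siScramble and squares for siFoxE1 vs wt. Psph reaches -1.01 vs wt, and Got2 and Mthfd2l lie between -0.05 and 0.04.

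Enzymes that stand next to the members in amino acid metabolism had no common direction. Of 27 such genes 25 had a probe and 22 were tested, with 13 above and 9 below 0 vs siScramble and 11 on each side vs wt, and 0 passed in either comparison. Their median was 0.03 vs siScramble and 0.0045 vs wt. With the block vs wt 3 passed as lower (4.86% of all genes). Cth, the cystathionine lyase that makes cysteine, had -0.62 (adjusted p with the block = 0.0133), Oat, which links ornithine to the proline precursor, had -0.44 (0.0213 with the block), and Srr, the serine racemase, had -0.30 (0.0307 with the block). In the fit of the vs wt comparison alone these 3 genes had adjusted p of 0.234 each.

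Enzymes that break down asparagine and proline had values on both sides of 0, and none passed. Aspg, an asparaginase, had 0.58 vs siScramble and 0.57 vs wt (adjusted p = 0.253 and 0.252), and its ratio was highest in replicate 3 of each comparison. Asrgl1, which also has asparaginase activity, had -0.14 and -0.15 (adjusted p = 0.421 and 0.30). Aldh4a1, which oxidizes the proline breakdown product, had 0.35 and 0.36 (adjusted p = 0.29 and 0.336), and Prodh2, the hydroxyproline dehydrogenase, had -0.06 and -0.08. Prodh, the first enzyme of proline breakdown, was too dim to be tested. Glul, Asl, Ass1, Cbs, Gcsh and Gpt2 had fitted values between -0.23 and 0.31 in both comparisons, and none passed.

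The wider set of Atf4 pathway genes, with Atf4 itself among them, also had most fitted values below 0. Of 41 listed genes, the members not among them, 38 had a probe and 36 were tested. None passed in either comparison, but 33 were below 0 vs siScramble and 32 vs wt (49.7 and 50.6% of all genes), with medians of -0.27 and -0.36. With the block 13 passed vs wt, all lower (4.86% of all genes), and 0 vs siScramble (0.165% of all genes). The 13 were Atf4, the tRNA synthetase genes Aars1, Cars1, Sars1, Tars1, Wars1 and Yars1, the transporter genes Slc1a4 and Slc6a9, and Eif2ak3, Nupr1, Ppp1r15a and Sesn2. Atf4 itself had ratios of -0.43, -0.52, -0.76 and -0.28 vs siScramble with -0.37 in the pool, and of -0.29, -0.91, -1.03 and -0.37 vs wt with -0.52 in the pool. It was below 0 on all 10 arrays. The fitted value was -0.43 vs siScramble (adjusted p = 0.192) and -0.59 vs wt (adjusted p = 0.234, or 0.0174 with the block).

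Other genes of the Atf4 pathway that serve amino acid supply are given for comparison. Sars1, the tRNA synthetase that loads serine, had -0.41 vs siScramble and -0.52 vs wt (adjusted p with the block vs wt = 0.0327), and Nars1, the one for asparagine, had -0.47 and -0.53 (0.0584 with the block). Slc3a2, the shared heavy chain of amino acid transporters, had -0.34 and -0.37, Slc7a11, the cystine transporter, -0.37 and -0.38, and Slc7a5, the large neutral amino acid transporter, -0.18 and -0.11. The individual Slc7a5 ratios vs wt were -0.67, -0.51, -0.79 and -0.31, while the pooled dye swap had 0.34. In replicate 1 Slc7a11 was above 0, at 0.38 vs siScramble and 0.36 vs wt. Sesn2, a leucine sensor, had -0.34 and -0.49 (0.0242 with the block vs wt). Ddit3, the stress factor CHOP, had -0.99 and -0.96 (adjusted p = 0.307 and 0.356). Its individual ratios were -0.09, -0.68, -2.39 and -0.61 vs siScramble and 0.53, -1.42, -2.52 and -0.40 vs wt. Trib3 had -0.34 and -0.36, and Chac1, which degrades glutathione, had -0.28 and -0.34. Atf5, Cebpb and Mars1 lay between -0.20 and 0.09.

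The ER chaperone genes, which the unfolded protein response induces, were read on the same arrays. Of 10 listed 9 were tested, all 9 had fitted values below 0 and 0 passed in either comparison. Their mean log2 ratio over 9 genes was -0.08, 0.01, -2.18 and -1.38 vs siScramble for replicates 1 to 4 with -0.74 in the pool, and -0.25, -0.01, -2.94 and -1.47 vs wt with -0.86 in the pool. They were thus near 0 in replicate 2 and low in replicates 3 and 4. The mean over the 10 members was -0.25, -0.19, -0.52 and -0.28 vs siScramble with -0.24 in the pool, and -0.41, -0.34, -0.84 and -0.46 vs wt with -0.42 in the pool. The members were therefore below 0 also in replicates 1 and 2. Hspa5, the chaperone BiP, had -3.24 and -3.94 in replicate 3 and fitted values of -1.06 (adjusted p = 0.411) and -0.97 (adjusted p = 0.493). Chaperone levels averaged 14.05, 10.85, 10.90 and 12.19 in siFoxE1 cultures, 14.13, 10.83, 13.03 and 13.57 in siScramble cultures and 14.30, 10.85, 13.89 and 13.67 in wt cultures, with culture 2 low throughout, as for most members. The part of these chaperone differences in the member ratios was not tested.

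**Figure D4:**
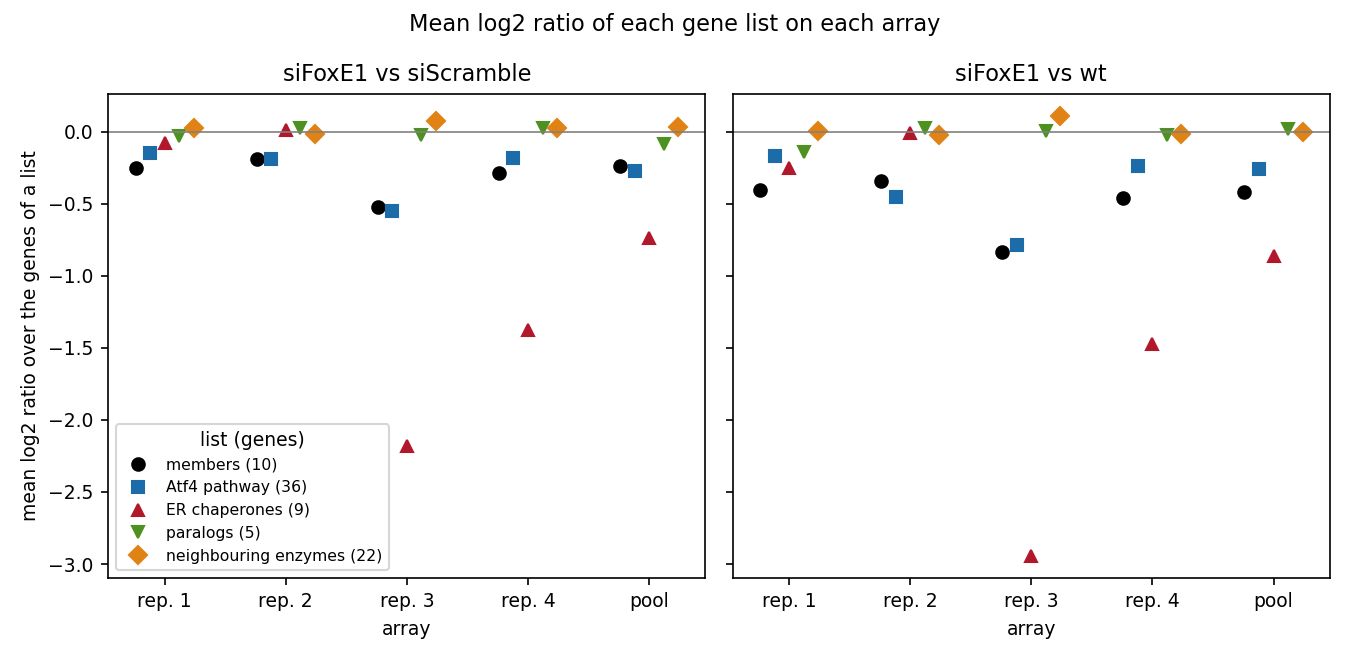
Mean log2 ratio over the genes of each list on each array, for siFoxE1 vs siScramble (left) and siFoxE1 vs wt (right); the number of genes stands in the legend. The members lie between -0.84 and -0.19 on all 10 arrays, the ER chaperones reach -2.94 in replicate 3 vs wt, and the paralogs and neighbouring enzymes stay near 0.

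The genes whose 8 individual ratios were most like the member mean, out of 9573 tested in both comparisons, were Pabir1 (r = 0.996), Rps4x (r = 0.992), Ripk1 (r = 0.989), Slc6a9 (r = 0.985) and Alkbh3 (r = 0.982). The measure takes no account of size. Pabir1 had fitted values of -0.32 vs siScramble and -0.42 vs wt, Slc6a9 had -0.45 and -0.53 and Alkbh3 had -0.27 and -0.47, while Rps4x had 0.02 and -0.12 and Ripk1 had -0.02 and -0.13. Among the members Aldh18a1 was the nearest to the mean, at r = 0.98, and Pycr1 the farthest of those with a positive r.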

How the data were processed

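RNA of PCCl3 cells was measured on 10 Agilent 2-dye arrays. The authors extracted signals with Feature Extraction 10.7.3.1, and the deposited files hold spot intensities per dye and the log10 ratio of red over green. A deposited table holds normalized log2 ratios, made by the authors with loess and quantile normalization (limma 3.2.3 per the submitters' processing notes); its column medians were -0.0047 to 0.0067, and its pooled columns were already turned to siFoxE1 over the other arm, as their correlations of -0.704 and -0.657 with the log10 ratio show. Its exact background step is not given in the sources used here. Dye orientation followed the sample labels.

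Median spot signals were corrected by normexp (offset 50) and then normalized within arrays by loess and between them by quantiles. Control and outlier spots (1.25 to 1.60% per array) were left out. limma 3.58.1 (R 4.3.3) was fitted on the 5 arrays of a comparison with a dye term (3 residual degrees of freedom), over probes well above background in a channel on at least 3 arrays, with Benjamini-Hochberg adjustment over all 18139 and 18526 probes tested vs siScramble and vs wt. A gene stood for its brightest tested probe. Probes were named through their transcript accession, which matched 17998 of 30367. The members and lists were chosen with earlier results of these data known. Named genes were all members with all probes, their paralogs, set neighbouring enzymes and Atf4 pathway genes, Hspa5, Foxe1, Tg, list genes past the threshold and the 5 genes most like the member mean. Aspg, Asrgl1, Prodh2 and genes that passed only with the block were added with their values known. Some listed genes are not reported here.

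Same-numbered arrays were treated as pairs, since the same siFoxE1 extract lies on both arrays of a number. Deviations of same-numbered arrays correlated at r = 0.658, 0.796, 0.809 and 0.466 for numbers 1 to 4, and the within-number correlation was 0.52. Arrays of different numbers had r of -0.675 to 0.534. The highest of these, number 4 vs siScramble with number 3 vs wt, exceeded the same-numbered r of number 4. The pooled arrays were a number of their own, although they hold RNA of the same cultures. n is 4 cultures, and precision is set by how few arrays there are; p-values measure the spread between cultures whose independence the labels do not detail. Alternatives left out a replicate, the dye term, the pool or the filter on dim probes, or changed the offset, the signals, the normalization, the variance model, the slide term or the threshold. The fits were tested on simulated data. Python 3.11.15 with pandas 2.3.3 read the promoters, and matplotlib 3.10.9 drew the plots.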

Additional observations from a re-analysis of the deposited data

Results flagged for a closer look

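In 50 groups of 4 values (levels per condition and ratios per comparison of each member), 4 had a value far from the other 3, where about 5% of groups would by chance. Got1 had a log2 intensity of 9.24 in wt culture 2, against 10.60 to 10.80 in the other wt cultures. Pck2 had 13.28 in wt culture 2, against 14.20 to 14.32 in the others. Psat1 had 13.96 in siFoxE1 culture 1, against 14.34 to 14.38 in the others. Aldh18a1 had a log2 ratio of -1.07 in replicate 3 of siFoxE1 vs wt, against -0.49 to -0.40 in the others.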

How the results depend on the processing

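The member median stayed below 0 under all alternatives run, from -0.45 to -0.25 vs siScramble, from -0.61 to -0.43 vs wt and from -0.26 to -0.15 for siScramble vs wt. Which members passed depended on the fit. Vs siScramble 4 passed as lower without the dye term and 3 on the 4 individual arrays only, and 0 under every other alternative. Vs wt 6 passed without the dye term, 2 on the 4 individual arrays only, 7 with all 10 arrays in 1 fit without a block, and 8 with the replicate block. The block pairs the arrays by number and changed no member's call vs siScramble or for siScramble vs wt. Leaving out 1 replicate at a time gave 0 to 2 vs wt, with Psph passing without replicate 2, and Psph and Mthfd2 without replicate 3. Over all genes, 14 passed vs siScramble and 3 vs wt, against 496 and 592 without the dye term, 353 and 137 on the individual arrays, 45 and 1050 with the block, and 67 and 1154 with all 10 arrays and no block. Leaving out 1 replicate gave 5 to 25 and 0 to 45, and the other settings 0 to 25 and 0 to 5. Psat1 ranged from -0.00027 to 0.12 vs wt and from -0.072 to 0.069 for siScramble vs wt when 1 replicate was left out, and was below 0 without replicate 3 in both. The cause of these changes was not tested. Without the dye term a dye effect on a probe enters its ratio, and the 5-array fits have 3 residual degrees of freedom.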
